A study of Mus musculus with 7 samples.

Results

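The genes described here are 142 neighbours of Aim2 on mouse chromosome 1. Each has its lower coordinate between 163350879 and 183350879 (GRCm38, GENCODE M21), within 10 Mb of that of Aim2 at 173350879, and had at least 10 estimated reads in at least 3 of 7 libraries. Aim2, genes whose symbols start with Ifi2, Mnda, Mndal, Pyhin1, Pydc3, Pydc4, Slamf1, Slamf6 to Slamf9, Cd48, Cd84, Ly9, Fcgr2b, Fcgr3, Fcgr4, Fcer1g and Hsd17b7 were left out by name. Of 323 genes with an estimate in the window, 142 were kept, 27 were left out by name and 154 had too few reads. The members are 142 of 35498 genes with an estimate in the series and of 14238 genes tested, and each of the 142 passed the test's filter on low counts. Of these, 92 lie below Aim2, at smaller coordinates, and 50 lie above it. In each library they held between 166962 and 190651 estimated reads. The rule used genotype nowhere, but a gene at 0 in WT could meet it only through KO: Itln1 did so. Just inside the read minimum, with exactly 3 libraries at 10 or more reads, were Itln1, Rxrg (4 to 32 reads over the libraries), Klhdc9 (5 to 14) and Susd4 (4 to 12). Just outside, with 2 such libraries, were 6 genes, among them Ildr2 (2 to 12 reads), Olfr433 (1 to 12), Olfr414 (5 to 11), Fmn2 (2 to 17) and Kif26b (4 to 10).

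Female mice aged 5 to 6 months gave whole bone marrow, whose messenger RNA was sequenced in 3 libraries labelled Aim2 knock-out (KO) and 4 labelled wild type (WT). No treatment is given. The labels name neither the strain, nor the part of Aim2 that is deleted, nor whether each library is a separate mouse, so p-values cover only the variation among libraries, which may be technical.

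Aim2 encodes a cytosolic sensor of double-stranded DNA that assembles an inflammasome. Its chromosomal neighbourhood is dense in genes of the immune system, among them selectins and receptors of the immunoglobulin superfamily, mixed with housekeeping enzymes and with genes of nerve and muscle. The members were chosen by position, not by function.

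Estimated reads per library lay between 20300468 and 21099972. Aim2 itself had 157, 47 and 59 reads in KO and 601, 573, 535 and 533 in WT. The log2 difference was -2.76 ± 0.38 (SE), the adjusted p was 0.028, and KO library 1 held 26.5% of the WT mean. With a library left out, Aim2 passed in 1 of 7 fits, without KO library 1, and its adjusted p ran from 0.0538 to 0.097 in the others. Of the marker lists, 9 of 9 B lineage genes had a fold change below 0, with summed levels of 156 to 245 reads per 1e6 (CPM) in KO and 314 to 513 in WT. The 7 of 7 erythroid genes were below 0 as well, with sums that overlapped, at 69800 to 92500 CPM in KO and 88200 to 144000 in WT. In contrast, 6 of 6 plasma cell genes were above 0. The B lineage, erythroid and plasma cell lists each had 0 genes with an adjusted p under 0.05. Of the interferon response genes, 9 of 12 had an adjusted p under 0.05 and were higher in KO. Skeletal muscle genes summed to 53.7 CPM in KO library 1 and 5342 in KO library 3, around the 894 to 1880 of WT. No marker was at 0 in every library. In whole marrow, fewer cells of a type and less RNA per cell cannot be told apart.

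Of the 142 members, 5 differed between KO and WT at an adjusted p under 0.05 in edgeR's quasi-likelihood test, with the Benjamini-Hochberg method applied over all tested genes. Itln1, Cfap126 and Pcp4l1 rose in KO, and Uap1 and Psen2 fell. This is 3.52% of the members, where 0.646% of all tested genes passed. By direction, 0.478% of all tested genes were called higher and 0.169% lower. Without Itln1, which could have passed the read minimum only through the group where it was high, 4 of 141 members passed, or 2.84%. A wider set of 38 members (26.8%) had an unadjusted p under 0.05, where 11.5% of all tested genes did. Of these, 20 were higher in KO and 18 lower, or 14.1% and 12.7% of the members, where 6.45% and 5.01% of all tested genes were. Groups did not overlap for 35 members (24.6%), against 12.9% of all tested genes. The median log2 fold change was -0.01 for the members and -0.01 for all tested genes, while the median absolute log2 fold change was 0.17 for the members and 0.11 for all. The members that differed were thus split between both directions. DESeq2 called 13 members, where it called 2.85% of all genes, and voom with sample weights called 10, where it called 1.9%. Both sets include the 5. With a length offset, Itln1 was the 1 of the 5 that passed, and on TPM values Itln1 and Cfap126 did, while Psen2 and Uap1 were at an adjusted p of 0.337 and 0.386 with a pseudocount of 0.1. Pcp4l1 missed the threshold under RLE scaling, at 0.0508, and Uap1 did so without a filter on low counts, at 0.0567. In edgeR fits that left out a library, 2, 1 and 3 members passed without KO library 1, 2 and 3, and 3, 0, 1 and 1 without WT library 1, 2, 3 and 4. In these fits 0 to 2.13% of the members passed, where 0.12 to 0.459% of all genes did. Without WT library 2, 33 members (23.6%) had an unadjusted p under 0.05, where 9.69% of all genes did.

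The stretch just upstream of each start is shown for the 5 called members, because they carry the expression differences and are of unlike kinds. Each line gives 100 bases on GRCm38.p6, read on the gene's strand, just before the RefSeq start closest to that of the transcript with the most reads, with CG dinucleotides in capitals:
Itln1 (chr1:171535295-171535394, minus strand): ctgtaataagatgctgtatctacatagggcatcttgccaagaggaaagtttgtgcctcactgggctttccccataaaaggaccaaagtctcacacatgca
Cfap126 (chr1:171121561-171121660, plus strand): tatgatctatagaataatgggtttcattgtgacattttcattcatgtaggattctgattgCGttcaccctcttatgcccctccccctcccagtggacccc
Pcp4l1 (chr1:171196269-171196368, minus strand): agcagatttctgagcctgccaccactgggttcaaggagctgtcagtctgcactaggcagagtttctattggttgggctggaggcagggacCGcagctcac
Uap1 (chr1:170174965-170175064, minus strand): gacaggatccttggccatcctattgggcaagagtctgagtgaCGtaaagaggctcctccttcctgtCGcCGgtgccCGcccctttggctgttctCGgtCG
Psen2 (chr1:180256301-180256400, minus strand): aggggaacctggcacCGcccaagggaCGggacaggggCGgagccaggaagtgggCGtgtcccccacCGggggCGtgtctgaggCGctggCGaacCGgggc
The printed stretch holds 0 CG in Itln1, 1 in Cfap126, 1 in Pcp4l1, 6 in Uap1 and 9 in Psen2. Over the whole window of 250 bases before to 50 after the start, the numbers were 0, 3, 8, 28 and 23, beside a median of 7 over 32851 RefSeq promoter windows, of which 94.6% hold a CG. The 3 members that rose had 40.3%, 51.7% and 53.3% G and C in that window, and the 2 that fell had 69.0% and 65.7%, with a median of 52.7% over all windows. Another window of Psen2 had 47.7%, and other windows of Cfap126 had 52.7% and 44.0%. These 5 genes were chosen by their change, so no link with direction is drawn. Both strands were searched for the core of the interferon-stimulated response element (GAAA, any 2 bases, GAAA) and for the gamma activated site (TTC, any 3 bases, GAA). Neither was found in a window of the 5 called members. Of 144 windows of the 116 members with an entry, 4.17% held the first and 5.56% the second, where 3.44% and 8.3% of all windows did.

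Itln1 encodes intelectin 1, a secreted lectin that binds microbial sugars and is best known from the intestine. It lies 1.83 Mb below Aim2, at 171518122 to 171535294. KO libraries 1 to 3 had 48, 25 and 31 reads, while WT libraries 1 to 4 had 0, 1, 0 and 0. The groups were far apart, with reads in every KO library and a single read in WT. Scaled for library size, the 104 KO reads against 1 WT read gave 131 times as many, and counting error alone allows 23.0 to 5220 times (95% interval). It passed the test, but as it met the read minimum only through KO it had to differ, and its call is given as a description. Intelectins form a family of near-identical genes whose number differs between mouse strains, so the gene of origin of these reads is uncertain. In KO the reads were placed on Itln1-201, the coding transcript.

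Cfap126 and Pcp4l1 lie close to each other, 2.24 and 2.18 Mb below Aim2. Cfap126, a protein of cilia and flagella at 171113918 to 171126967, had 4.98, 6.15 and 3.71 CPM in KO and 2.47, 1.74, 1.89 and 1.91 in WT. Each KO library was above each WT library, at 4.95 ± 1.22 (SD, n = 3) against 2.0 ± 0.317 CPM (n = 4). The log2 fold change was 1.3 ± 0.21 (SE), with an adjusted p of 0.048. Pcp4l1, a small protein with an IQ motif known from the brain, at 171173262 to 171196268, had 22.8, 25.9 and 32.5 CPM in KO and 14.8, 15.2, 10.3 and 14.8 in WT. Again the groups did not overlap, with means of 27.1 ± 4.94 and 13.8 ± 2.3 CPM. The log2 fold change was 0.98 ± 0.17, with an adjusted p of 0.0497.

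Uap1 makes UDP-N-acetylglucosamine, the sugar donor of many glycosylation reactions, and lies 3.21 Mb below Aim2 at 170141938 to 170174957. It had 41.0, 42.8 and 40.1 CPM in KO and 58.8, 53.5, 51.8 and 53.2 in WT. Every KO library was under every WT library, and the log2 fold change was -0.39 ± 0.07 with an adjusted p of 0.049. Psen2 encodes presenilin 2, a catalytic subunit of gamma-secretase, and is the 1 called member above Aim2, at a distance of 6.88 Mb (180227004 to 180263438). Its levels were 32.3, 29.2 and 29.4 CPM in KO and 42.2, 41.8, 42.7 and 41.3 in WT. The WT libraries lay close together at 42.0 ± 0.577 CPM, above the KO mean of 30.3 ± 1.77, and the log2 fold change was -0.47 ± 0.06 with an adjusted p of 0.028. Ncstn, nicastrin, another subunit of the same protease and also a member, was at 0.16 on the log2 scale (adjusted p 0.59).

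With 1 library left out, Uap1 and Pcp4l1 passed in 0 of 7 fits, with adjusted p from 0.0518 to 0.16 and from 0.0648 to 0.16. Psen2 passed in 2 of 7, without KO library 1 (0.0399) or without WT library 1 (0.0438), and reached 0.132 otherwise. Cfap126 passed in 1 of 7, without KO library 3 (0.0325), and reached 0.165 otherwise. The direction of each of these 4 was the same in all 7 fits.

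**Figure D1:**
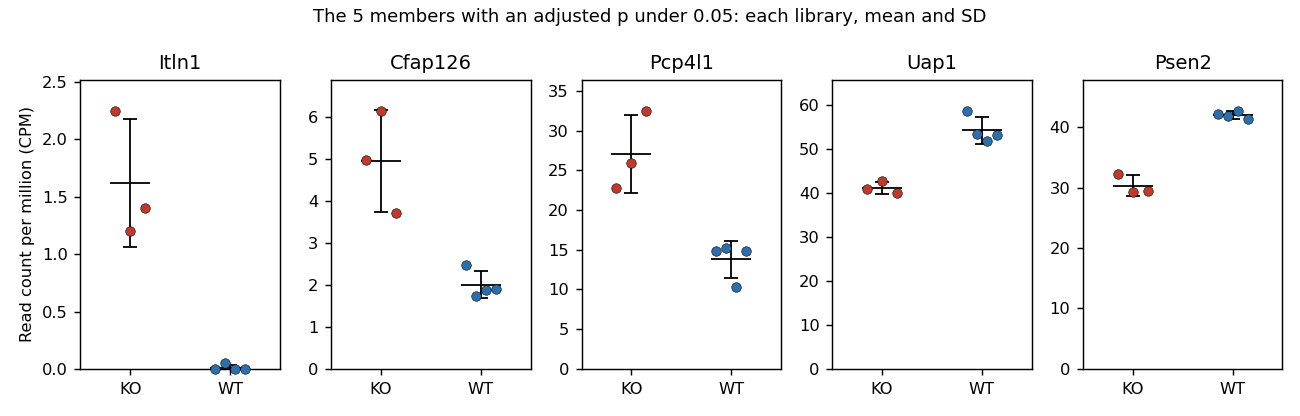
Reads per 1e6 mapped to genes (CPM, vertical axis, each panel from 0) of the 5 called members in 3 KO and 4 WT libraries. Points are libraries, the wide bar is the group mean and the whiskers the SD. In every panel the KO points lie apart from the WT points, above them for Itln1, Cfap126 and Pcp4l1 and below them for Uap1 and Psen2.

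The members that differed lay mostly below Aim2 and near to it. Members were counted in bands of 2.5 Mb. In the band from 2.5 Mb below Aim2 up to Aim2, 3 of 45 members were called and 18 (40.0%) had an unadjusted p under 0.05, 11 higher and 7 lower. Without Itln1 these were 2 of 44 and 17 (38.6%). From 5 to 2.5 Mb below, 1 of 11 was called and 7 (63.6%) had such a p, 4 higher and 3 lower. In the 2 bands further down, from 7.5 to 5 Mb and from 10 to 7.5 Mb below, edgeR called 0 of 11 and 0 of 25. Unadjusted, 3 and 3 had a p under 0.05, and DESeq2 called 1 and 0 and voom 1 and 0. The median absolute log2 fold change was 0.11, 0.12, 0.24 and 0.29 over these 4 bands, from the farthest to the nearest.

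Above Aim2 the shares were lower. Of 50 members there, 1 was called and 7 (14.0%) had an unadjusted p under 0.05, against 31 of 92 (33.7%) below. The 4 bands upward held 5, 9, 15 and 21 members, of which 1, 2, 1 and 3 had an unadjusted p under 0.05. Psen2 was the called member, in the band from 5 to 7.5 Mb, and edgeR called 0 in the other 3 bands, where DESeq2 called 0, 0 and 1 and voom 0, 0 and 1. Only 5 members lie within 2.5 Mb above Aim2, so that band says little.

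Taking the 2 nearest bands below together, a grouping made after the values were seen, 4 of 56 members were called and 25 (44.6%) had an unadjusted p under 0.05. Without Itln1 these were 3 of 55 (5.45%) and 24 (43.6%). The other 86 members held 1 call and 13 (15.1%) with such a p. The median absolute log2 fold change was 0.27 in the first group (0.26 without Itln1) and 0.11 in the second. On the rest of chromosome 1, 4 of 658 genes were called (0.608%), 13.2% had an unadjusted p under 0.05 and the median absolute log2 fold change was 0.11. On the other chromosomes the values were 76 of 13411 (0.567%), 11.1% and 0.11. The 86 other members were thus close to the genes outside the window on these measures. Of the 26 tested genes of the window left out by name, other than Aim2, 6 were called (23.1%) and 18 (69.2%) had an unadjusted p under 0.05. No test compares these shares, since neighbouring genes are not independent.

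**Figure D2:**
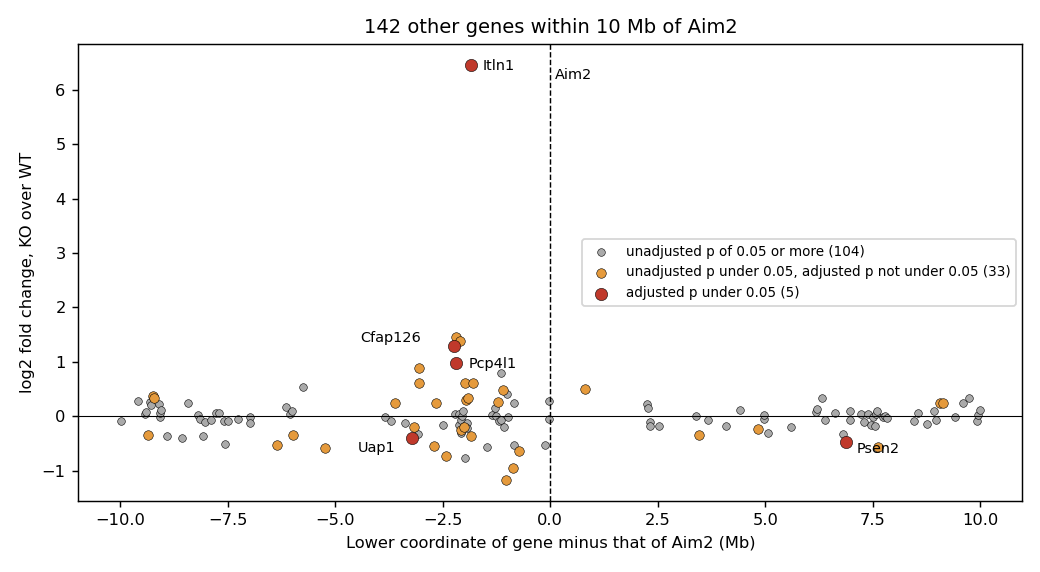
Log2 fold change of KO over WT (vertical axis) against position relative to Aim2 in Mb (horizontal axis, dashed line at Aim2) for the 142 members. Red points are the 5 members with an adjusted p under 0.05, orange the 33 others with an unadjusted p under 0.05 and grey the remaining 104. The wide spread in both directions lies within 5 Mb below Aim2.

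**Figure D3:**
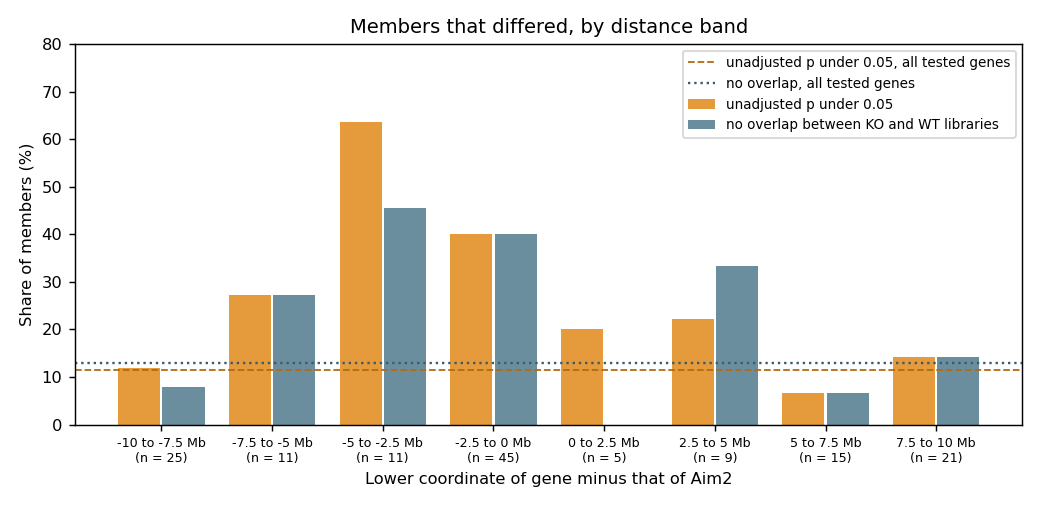
Share of members in each 2.5 Mb band (vertical axis, in %) with an unadjusted p under 0.05 (orange bars) and with no overlap between KO and WT libraries (blue-grey bars). The lines mark the shares over all tested genes, 11.5% and 12.9%. The bars of the 2 bands nearest below Aim2 reach 63.6% and 40.0% for the unadjusted p.

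Size of change, taken from the same fit and so not independent of the p-values, showed the same position. A total of 15 members (10.6%) were past 1.5-fold in either direction, where 6.3% of all tested genes were, and these 15 lay between 3.05 and 0.72 Mb below Aim2. Without Itln1 they were 14 (9.93%). Among them, higher in KO were Gm7694, Nos1ap, Cfap126, Pcp4l1, Adamts4, Nectin4, Itln1, Cd244a and Casq1. Lower were Fcrla, Klhdc9, Kcnj9, Igsf9 and Dusp23. Klhdc9 and Casq1 had an unadjusted p of 0.122 and 0.455, and the rest of the 15 were already counted above with a p under 0.05. Casq1, calsequestrin of skeletal muscle, had 1.22, 13.6 and 110 CPM in KO and 17.9 to 31.6 in WT, and moved with the muscle marker sum of each KO library. Without KO library 3 and with voom weights, 22 and 23 members were past this fold, and 16 and 17 of these lay within 5 Mb below.

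The genes closest to Aim2 did not pass the test. Cadm3 and Ackr1, both 0.02 Mb below, are a neural adhesion molecule and the atypical chemokine receptor of red cells and venules. Fcer1a, 0.13 Mb below, is the alpha chain of the IgE receptor of mast cells and basophils. Cadm3 had 4.69, 4.76 and 3.39 CPM in KO and 3.16, 4.41, 5.04 and 4.98 in WT, a log2 fold change of -0.04 ± 0.21 whose sign turned to 0.19 with a length offset and to 0.31 or 0.18 on TPM values. The Cadm3 gene model overlaps that of Aim2 on the opposite strand over 16817 bases. Ackr1 was at 44.6 to 60.8 CPM in KO and 40.0 to 50.4 in WT (0.29 ± 0.13, adjusted p 0.459), and Fcer1a at 4.08 to 8.33 and 7.18 to 10.1 (-0.52 ± 0.24, adjusted p 0.459). In all 3 genes the groups overlapped.

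On the other side, Fh1, fumarate hydratase, and Kmo, kynurenine 3-monooxygenase, lay 2.25 and 2.27 Mb above Aim2. Their log2 fold changes were 0.23 ± 0.10 and 0.16 ± 0.12, with adjusted p of 0.448 and 0.672.

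Members were next grouped by role, on lists written from general knowledge. Some genes fit their list loosely, among them Desi2 on the cell division list and Uhmk1 on the ubiquitin list. Counts per list thus describe the lists as written. Of all tested genes, 0.646% were called and 11.5% had an unadjusted p under 0.05, 6.45% higher and 5.01% lower. Such a p held for 42.9% of the leukocyte list (40.0% without Itln1), 36.4% of the stromal list and 31.6% of members on no list. For the cell division list it was 22.2%, for the enzymes 19.2%, for the transcription list 16.7% and for the ubiquitin list 15.4%. No test compares these shares. Of 21 genes of leukocyte and platelet surface and immune signalling, Itln1 was called and 9 had an unadjusted p under 0.05, 7 higher and 2 lower, with a median log2 fold change of 0.25. Without Itln1, edgeR called 0 of the remaining 20, DESeq2 3 and voom 0, 8 had an unadjusted p under 0.05 and the median was again 0.25. Markers of myeloid cells were mostly above 0 as well. Of the neutrophil genes, 9 of 10 were above 0, with a median of 0.27 and sums of 22900 to 25100 CPM in KO and 17700 to 23100 in WT. Of the monocyte and macrophage genes, 7 of 8 were above 0, with a median of 0.26 and sums of 1482 to 1654 CPM in KO and 934 to 1456 in WT, without overlap. Lymphoid markers were mixed. Of the T and NK cell genes, 3 were above 0 and 5 below, with a median of -0.22. Their sums overlapped, at 88.4 to 90.8 CPM in KO and 73.2 to 89.9 in WT. The 9 of 9 B lineage genes were below 0 and the 6 of 6 plasma cell genes above 0. The neutrophil, monocyte and macrophage, T and NK cell, B lineage and plasma cell lists each had 0 genes with an adjusted p under 0.05. The part of these cells in the list's values was not tested. Cd244a, a receptor of the SLAM family on NK cells also called 2B4, had 7.51, 8.5 and 10.2 CPM in KO and 4.77, 5.62, 5.86 and 6.41 in WT (0.62 ± 0.15, adjusted p 0.143). Igsf8, a partner of tetraspanins, had 36.7, 42.8 and 50.5 CPM in KO and 27.3, 32.5, 30.9 and 33.9 in WT (0.48 ± 0.12, adjusted p 0.159). For both genes the groups did not overlap. Their models each overlap another gene on the opposite strand, Ly9 in the case of Cd244a, and the strand setting of the quantification is not given in the sources used here.

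Among the other immune genes, the junctional adhesion molecule F11r (0.34), the GTPase-activating protein Arhgap30 (0.30), P-selectin Selp (0.38) and coagulation factor V F5 (0.33) were higher at an unadjusted p under 0.05, with adjusted p from 0.34 to 0.418. Selp and F5 are genes of platelets and endothelium and lie more than 9 Mb from Aim2. The summed megakaryocyte markers were 1950 to 2800 CPM in KO and 1870 to 2420 in WT, the endothelial markers 156 to 164 and 128 to 140, and their part was not tested. Fcrla, an Fc receptor-like protein of B cells, had 16.9, 11.5 and 17.2 CPM in KO and 23.1, 20.3, 24.6 and 32.0 in WT (-0.72 ± 0.19, adjusted p 0.189). The 2 groups were apart, as were the sums of B lineage markers, whose part in this value was not tested. Dusp23, a phosphatase, was at -0.63 on the log2 scale (adjusted p 0.252).

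Of 26 mitochondrial and metabolic enzymes, Uap1 was called lower, and the 5 with an unadjusted p under 0.05 were all lower, beside a median of -0.05 for the list. Besides Uap1 these were Ephx1, Mgst3, Nit1 and Mettl18. Ephx1, the microsomal epoxide hydrolase 7.63 Mb above Aim2, had 17.1, 15.1 and 16.7 CPM in KO and 18.2, 24.6, 24.6 and 28.5 in WT. The groups did not overlap, and the log2 fold change was -0.56 ± 0.15 (adjusted p 0.18). It passed without WT library 1, at 0.0452. Mgst3, a microsomal glutathione transferase, was at -0.34 on the log2 scale (adjusted p 0.351). Sdhc, a subunit of succinate dehydrogenase, was at 0.05.

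Of 18 genes of transcription, chromatin and nuclear RNA, edgeR called 0, DESeq2 and voom 1 each, and 3 had an unadjusted p under 0.05. Atf6, a sensor of stress in the endoplasmic reticulum, had 52.5 to 56.1 CPM in KO and 44.3 to 48.8 in WT (0.24 ± 0.06, adjusted p 0.166), and Trp53bp2, a partner of p53, was also at 0.24 (adjusted p 0.277). Values near 0 were found for abundant nuclear proteins such as Hnrnpu (0.02), Parp1 (0.04) and the lamin B receptor Lbr (-0.09).

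Of 26 genes of the ubiquitin pathway, endoplasmic reticulum, Golgi and vesicle traffic, Psen2 was called lower and 4 had an unadjusted p under 0.05, 1 higher and 3 lower. The lower ones besides Psen2 were Usp21, a deubiquitinase (-0.26, adjusted p 0.292), and Uhmk1, a kinase that phosphorylates splicing factors (-0.20 ± 0.06, adjusted p 0.248). Uhmk1 had 108, 112 and 103 CPM in KO and 122 to 124 in WT, without overlap. Copa, a coat protein of Golgi vesicles, was at 178 to 194 CPM in KO and 158 to 197 in WT. Of 9 genes of cell division and DNA repair, edgeR, DESeq2 and voom each called 0, and 2 had an unadjusted p under 0.05. These were Desi2, a deSUMOylating peptidase, at -0.23 ± 0.08 (adjusted p 0.343; 0.08 and 0.06 on TPM values) and Sdccag8, a centrosome protein, at -0.35 ± 0.13 (adjusted p 0.348).

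The 22 genes of stroma, vessels, nerve and muscle had the widest spread of the lists with more than 1 member, with a median absolute log2 fold change of 0.36 and a median level of 9.17 CPM. Pcp4l1 was called higher, and 8 had an unadjusted p under 0.05, 5 higher and 3 lower. Nectin4, an epithelial adhesion protein, had 4.18, 4.52 and 4.80 CPM in KO and 2.41, 3.2, 3.39 and 2.78 in WT (0.61 ± 0.16, adjusted p 0.193). Kcnj9, a subunit of G protein-gated potassium channels, and Igsf9, a neural adhesion protein, went the other way. Kcnj9 had 0.422, 0.721 and 0.769 CPM in KO and 1.21 to 1.84 in WT (-1.17 ± 0.29, adjusted p 0.157), and Igsf9 had 0.563, 0.577 and 0.95 in KO and 1.23 to 1.48 in WT (-0.95 ± 0.26, adjusted p 0.193). For these 3 genes the groups did not overlap.

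Of 19 members on no list, Cfap126 was called and 6 had an unadjusted p under 0.05, 4 higher and 2 lower. Adamts4, an aggrecan-cleaving protease, had 2.96, 1.39 and 2.31 CPM in KO and 1.07, 0.727, 0.824 and 0.766 in WT. The groups did not overlap, and the log2 fold change was 1.39 ± 0.29 (adjusted p 0.0997). Gm7694, a predicted coding gene, had 31.1, 29.9 and 23.6 CPM in KO and 16.0 to 20.7 in WT (0.62 ± 0.12, adjusted p 0.0841). Its gene span overlaps that of Nos1ap on the same strand over 3665 bases. Nos1ap, an adaptor of neuronal nitric oxide synthase, had a log2 fold change of 0.89. The overlap counts introns, and whether the 2 genes share exons or reads was not examined. Pex19, which carries membrane proteins to peroxisomes, had 51.9 to 54.2 CPM in KO and 41.6 to 46 in WT, without overlap (0.26 ± 0.06, adjusted p 0.139). In all, the gene spans of 58 members, introns included, overlap another listed gene.

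**Figure D4:**
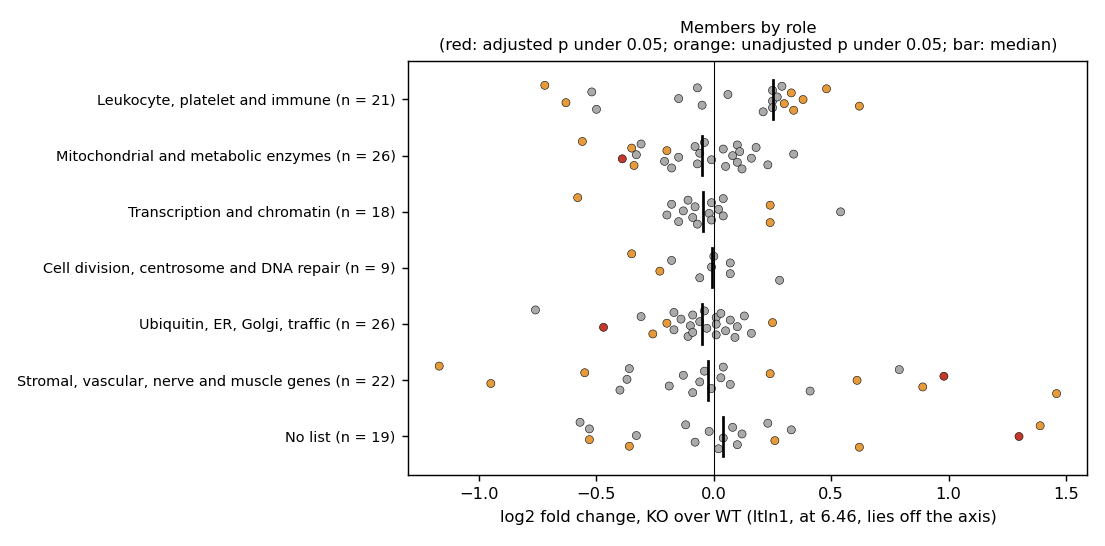
Log2 fold change of KO over WT (horizontal axis) for the members of each role list (rows), with red points for an adjusted p under 0.05, orange for an unadjusted p under 0.05 and a bar at the list's median. Itln1 lies off the axis at 6.46. The stromal, vascular, nerve and muscle list spreads widely in both directions, while cell division genes lie between -0.35 and 0.28.

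Some members with little difference in total reads differed in the split between their transcripts. The share of a gene's estimated reads was taken for each transcript with a mean share of at least 5% in a group, in genes with at least 50 reads in every library. Both limits were chosen after values were seen, and the shares are described without a test. Of 223 transcripts of members, 34 (15.2%) had shares without overlap between KO and WT, where 6.56% of all 21234 did. Of these, 11 transcripts of 6 genes (4.93%, against 1.53% of all) also had group means at least 10 percentage points apart: Mpzl1, Nuf2, Uhmk1, Dusp12, Dedd and Smyd3. Of these genes, Mpzl1, Nuf2, Uhmk1 and Dusp12 each had a transcript that met both conditions in all 7 repeats that left out a library. Groups apart over all 7 libraries stay apart when a library is left out. In these repeats only the gap of 10 percentage points could thus fail. The share without overlap was higher in each repeat, where a smaller group overlaps less easily, so its rise says nothing of stability. Without KO library 3 it was 25.6% of member transcripts and 20.9% of all transcripts. In the other 6 repeats it was 18.8 to 23.5% and 10.6 to 13.1%. Salmon divides reads between similar transcripts by a model, so these shares carry its uncertainty as well.

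Uhmk1 showed the widest gap. Uhmk1-202 was estimated at 0 reads in the 3 KO libraries and at 816, 729, 569 and 809 in WT, or 22.2 to 35.3% of the gene. Uhmk1-201 held 50.8, 54.6 and 54.2% in KO and 0, 8.05, 29.8 and 0% in WT. Both are coding transcripts with the same outer ends, of 7775 and 7864 bases. In Dusp12, a phosphatase, Dusp12-205, a transcript annotated for nonsense-mediated decay, held 1.27, 0 and 0% in KO and 17.3, 13, 17.4 and 14.6% in WT. Its second such transcript, Dusp12-203, held 7.63, 1.91 and 1.81% in KO and 15.7, 21.6, 26.8 and 15.4% in WT. The coding Dusp12-201 held 72.6 to 89.7% in KO and 47.5 to 69.0% in WT.

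Nuf2, a kinetochore protein, had a log2 fold change of -0.01 in total. Nuf2-202 held 21.3, 18 and 22.8% of its reads in KO and 4.05, 7.97, 8.48 and 9.14% in WT. The longer Nuf2-202 thus had a larger share in each KO library, and Nuf2-201 a smaller one, at 72.0 to 76.7% against 90.9 to 95.8%. Mpzl1, a cell surface glycoprotein, had 33.6, 24.3 and 34.3% in Mpzl1-201 in KO and 13.7, 20.7, 19.1 and 19.6% in WT. Uhmk1, Dusp12 and Nuf2 lie within 5 Mb below Aim2, and Mpzl1 lies farther below.

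**Figure D5:**
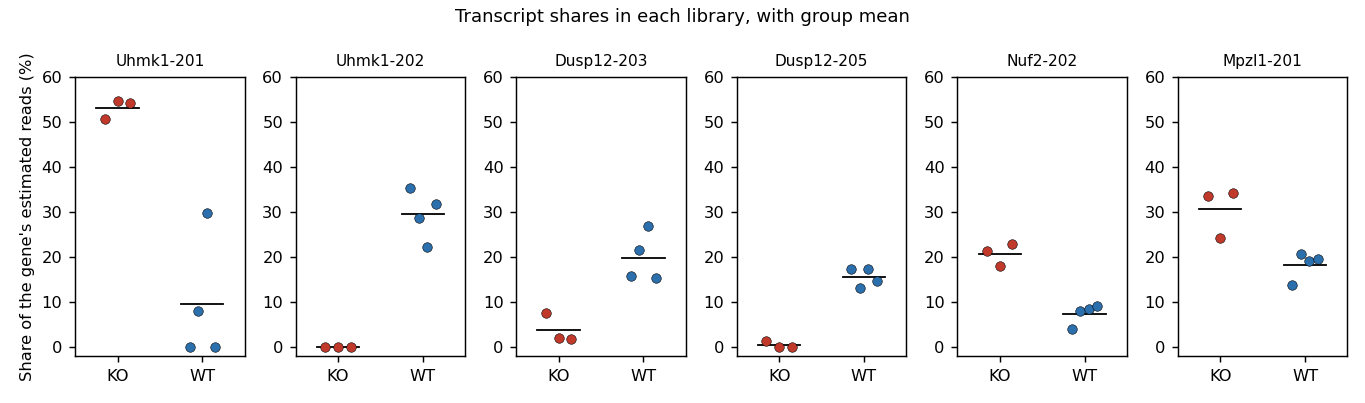
Share of a gene's estimated reads (vertical axis, in %) held by 6 transcripts in 3 KO and 4 WT libraries. Points are libraries and bars group means. No panel has overlap between the groups, and Uhmk1-202 and Dusp12-205 lie at or near 0 in KO.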

How the data were processed

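Whole bone marrow RNA was sequenced as strand-specific mRNA libraries on DNBSEQ, per the labels' protocols. The authors checked reads with FastQC 0.11.9 and quantified transcripts with Salmon 1.7.0 on GRCm38.p6, and also used DESeq2, per the submitters' processing notes. Neither the transcript release nor Salmon's options are given in the sources used here. Per transcript, the deposited values are estimated counts (not normalized), TPM (scaled for effective length and library total) and effective length, per the file headers. Between 37.1 and 39.4% of the listed transcripts per library had a count that was not whole.

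Transcripts were joined to GENCODE M21 genes, leaving out those without a gene (at most 0.0662% of reads). Per gene, the estimated counts were added up and rounded. The edgeR 4.0.16 filter (filterByExpr) left 14238 genes, TMM factors were 0.918 to 1.06, and genotype (3 KO, 4 WT, from the titles) was tested with the quasi-likelihood test in R 4.3.3, two-sided, with Benjamini-Hochberg adjustment over all tested genes. A gene was called at an adjusted p under 0.05. SE was derived from the log2 fold change and the F statistic (its size over the root of F). CPM uses TMM-adjusted totals, and levels are not corrected for gene length. The scripts were tested on simulated data.

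The members and lists were chosen with earlier results of these data known. Named genes were every called member, those of smallest p with an unadjusted p under 0.01 (at most 20), the 3 nearest to Aim2 on each side and the 2 of smallest p in each role list. Members outside this rule were named after their values were seen: those past 1.5-fold, those of the transcript shares and examples of a list. Promoter windows are from RefSeq, GRCm38.p6. Alternatives tried were RLE factors, factors computed with haemoglobin, immunoglobulin and mitochondrial genes left out, DESeq2 1.42.0, voom with sample weights (limma 3.58.1), 2 other filters, a length offset, limma on log2(TPM + 0.1) and log2(TPM + 1), the sample number as a block, each library left out, other thresholds, windows of 5 and 2.5 Mb and position by transcription start. Intervals cover counting error only. Some genes that meet these rules are not reported here.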

Additional observations from a re-analysis of the deposited data

Results flagged for a closer look

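Pcp4l1, of 27 named genes (Aim2 included), was at 10.3 CPM in WT library 3 and at 14.8 to 15.2 CPM in the other 3 WT libraries, a gap that chance gives in about 1 in 20 groups. Itln1 was at 0.0485 CPM, a single read, in WT library 2 and at 0 in the others; any single read beside 3 zeros stands apart in this way, so nothing is read from it.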

How the results depend on the processing

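Against 5 members called, DESeq2 called 13, voom with sample weights 10, the length offset 1 and limma on TPM 2 with either pseudocount. The replicate block called 0, with 34 members (23.9%) at an unadjusted p under 0.05, against 9.99% of all genes. Of all genes, 0.386% were called with the offset, 0.344 and 0.351% on TPM and 0.147% with the block. Thresholds of 0.1 and 0.01 gave 8 and 1, a window of 2.5 Mb 3, and leaving out a library 0 to 3. Same-numbered libraries did not deviate together (correlations 0.106, -0.0282 and -0.267), so the block rests on a number alone. By band, from 7.5 to 5 Mb below, DESeq2 called 1 and leave-one-out fits 0 to 1. From 5 to 2.5 Mb below, they called 2 and 0, and the block 0. From 2.5 Mb below to Aim2, they called 8 and 0 to 2, and the block 0. From 5 to 7.5 Mb above, the block called 0 and leave-one-out fits 0 to 1. From 7.5 to 10 Mb above, DESeq2 called 1 and leave-one-out fits 0 to 1. The count with an unadjusted p under 0.05 ran from 27 (19.0% of members, 7.98% of all genes, without KO library 2) to 52 (36.6% and 17.1%, voom) over all settings, so the share over all genes moved as well. Leaving out a library gave 14 to 22 members past 1.5-fold, and voom weights 23. Transcripts without overlap numbered 43 to 57 with a library left out (18.8 to 25.6% of those of members, 10.6 to 20.9% of all). Smaller groups overlap less easily, so these numbers do not measure stability.

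The median log2 fold change of the members was 0.14 and 0.12 on TPM with a pseudocount of 0.1 and 1, where that of all genes moved to 0.13 and 0.10. Aim2 was at -1.17 and -1.08 on TPM and -2.97 with the block, with an adjusted p above 0.05 in each, and at -3.49 to -2.47 with a library left out, where 1 of 7 fits passed. Cadm3 turned to 0.19 with the length offset, 0.31 and 0.18 on TPM and 0.03 with the block, and ran from -0.17 to 0.09 with a library left out. Desi2 turned to 0.08 and 0.06 on TPM. Of the other comparisons of a named member with a setting, 373 kept direction and side of the threshold, 45 lost the call (5 genes) and 15 gained it (9 genes). The cause of these shifts was not tested.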
